A study of Oryza sativa with 24 samples.

Results

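The genes described here are 53 members of 4 auxin response families of rice: 17 auxin response factors (ARF), 26 Aux/IAA genes (IAA), 9 GH3 genes and the small auxin-up RNA gene SAUR39, the 1 SAUR gene that could be matched. They were chosen by name alone, from the gene symbols and synonyms of the array's annotation and of a reference gene table, and they are 53 of 17905 genes for which the array has a probe set of 1 gene. The reference table names 61 genes of these families. The other 8 (ARF5, ARF6, ARF8, ARF19, ARF21, ARF25, IAA11 and IAA29) had no probe set assigned to that gene alone and were not analysed here. The members have 66 such probe sets in all, and the 10 members with several are represented by the brightest.

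Auxin acts on transcription through a short chain of proteins. ARF proteins bind auxin response elements in promoters, and Aux/IAA proteins bind to ARFs and hold their targets down together with co-repressors of the TOPLESS family. Auxin joins an Aux/IAA protein to a receptor of the TIR1/AFB family, which marks the repressor for breakdown, and the freed ARFs then switch on early targets that include many Aux/IAA, GH3 and SAUR genes. Most GH3 enzymes studied join auxin to amino acids and so lower the free hormone, which makes the early targets part of a feedback loop. Cytokinin, the hormone applied in this series, is known for opposing auxin in root growth and for acting with or against it in many other tissues. Several rice genes carry names from 2 numbering systems (ARF1 is also listed as OsARF16, ARF4 as OsARF2, ARF12 as OsARF8, ARF18 as OsARF10, ARF23 as OsARF1, IAA4 as IAA20, IAA5 as IAA8 and IAA13 as IAA1), and each is called here by the number that no other gene of its family holds as its own.

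The series measured transcripts in organs cut from 2-week-old hydroponic seedlings of Oryza sativa cultivar Nipponbare on a 1-colour rice array, with biotin-labelled cRNA. Whole roots, or leaves of the third position severed at the lamina joint, were kept in distilled water at 30 °C, and the incubation lasted 30 or 120 min. The water of the arrays labelled tZ held 5 µM trans-zeatin (tZ, an active cytokinin) with 0.1% dimethylsulfoxide (DMSO, the solvent), and that of the arrays labelled DMSO held 0.1% DMSO alone. The 8 groups of organ, treatment and time hold 3 arrays each, 24 in all, and every group, controls included, was excised and submerged. How many plants went into an array is not given in the sources used here. Because whole organs were sampled, fewer cells of a type and less RNA per cell cannot be told apart.

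The labels were compared with marker genes before use. Root is entered as the tissue of all 24 samples, but by title and protocol 12 of them are leaf. In the DMSO groups at 30 min the rubisco small subunit gene OsrbcS read 19738 ± 1266 in leaf and 349 ± 48.1 in root (mean ± SD, n = 3, linear signal), and the Casparian strip gene OsCASP1, a root endodermis marker, read 15.9 ± 0.551 in leaf and 2227 ± 152 in root, so the organs followed the titles. The treatment labels were less clear. Type-A response regulators are the standard early targets of cytokinin, yet for all 5 that were tested the lowest array labelled DMSO 120 min lay above the highest one labelled tZ 30 min, in root and in leaf alike. All arrays labelled tZ 30 min lay above all arrays labelled DMSO 30 min for 4 of these 5 genes in root and 2 of 5 in leaf. With tZ against DMSO, 3 were called higher and 1 lower in root at 30 min, and 2 higher and 1 lower at 120 min. In leaf 1 was called higher and 2 lower at 30 min, and 4 higher and none lower at 120 min. All 5 were called higher in tZ 120 min against DMSO 30 min, and in tZ 120 against tZ 30 min, in root and in leaf. Whether the labels of the DMSO 120 min and tZ 30 min groups were exchanged was not tested. Treatments, times and directions below therefore rest on the labels as given. The comparison of tZ 120 min with DMSO 30 min, which uses neither of the other 2 groups, is given as well. That comparison differs in incubation time as well as in the treatment label.

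Genes of the low-oxygen response moved with the tZ label. The pyruvate decarboxylase gene PDC1 read 178 ± 4.25 in root labelled DMSO 30 min and 22479 ± 904 in root labelled tZ 30 min, and the alcohol dehydrogenase gene Adh2 read 84.8 ± 10.1 and 13147 ± 97.5 in the same groups of leaf. Of 4 such genes measured (PDC1, Adh2, NSHB1 and NSHB2), 4 were called higher in root at 30 min, 4 in root at 120 min, 4 in leaf at 30 min and 3 in leaf at 120 min. Their part in the results below was not tested. In 1 array, root labelled tZ 120 min replicate 2, PDC1 and the leaf marker CAB2R stood apart from the other 2 arrays of the group. PDC1 read 12793.9 there against 17987.8 and 17665.6, and CAB2R, a chlorophyll-binding protein gene, 4746.4 against 1435.9 and 1382.9. Without that array, 49 of the 50 named results below that use it kept their call, the exception being the GH3.8 difference between organs at 120 min, which went from 0.38 (adjusted p = 0.0196) to 0.29 (adjusted p = 0.066).

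Values are linear signals as deposited, and a log2 change is a difference of means of log2(signal + 20). The median signal lay between 68.2 and 86.7 on root arrays and between 47.6 and 57 on leaf arrays, and replicate arrays correlated at 0.9603 to 0.9819 over probe sets. A gene was called where limma's adjusted p, corrected over all probe sets tested in that comparison, was below 0.05, and all adjusted p-values below are of this kind. Members passed the filter on dim probe sets in 49 cases in root and 45 in leaf, 43 in both and 51 in at least 1 organ. ARF13 and IAA8 were too dim to test in root. GH3.1, GH3.4, GH3.11, IAA16, IAA20 and IAA26 were too dim in leaf, and GH3.9 and IAA14 in both organs.

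Leaf showed more calls in these families than root, and in all 4 comparisons of tZ with DMSO more ARF genes were called lower than higher. In root at 30 min, 7 of 49 tested members were higher and 12 lower in arrays labelled tZ, 38.8% called against 33.7% of all probe sets tested, of which 13.9% were higher and 19.9% lower. Root at 120 min gave 7 higher and 11 lower, 36.7% against 30.3% of all probe sets, which split into 11.4% and 18.9%. In leaf after 30 min 12 of 45 members were higher and 19 lower, 68.9% against 45.6%, with 23.7% of all probe sets higher and 21.8% lower. Leaf at 120 min gave 13 higher and 18 lower, 68.9% against 43.4%, with 22% and 21.4%. The share in root was thus near that of all probe sets, and the share in leaf was above it. With the arrays shifted to a common median, the root counts at 120 min became 10 higher and 9 lower, and the share of higher calls over all probe sets moved from 37.7% to 54.0%. Without root tZ 120 min replicate 2 they were 8 higher and 15 lower.

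**Figure D1:**
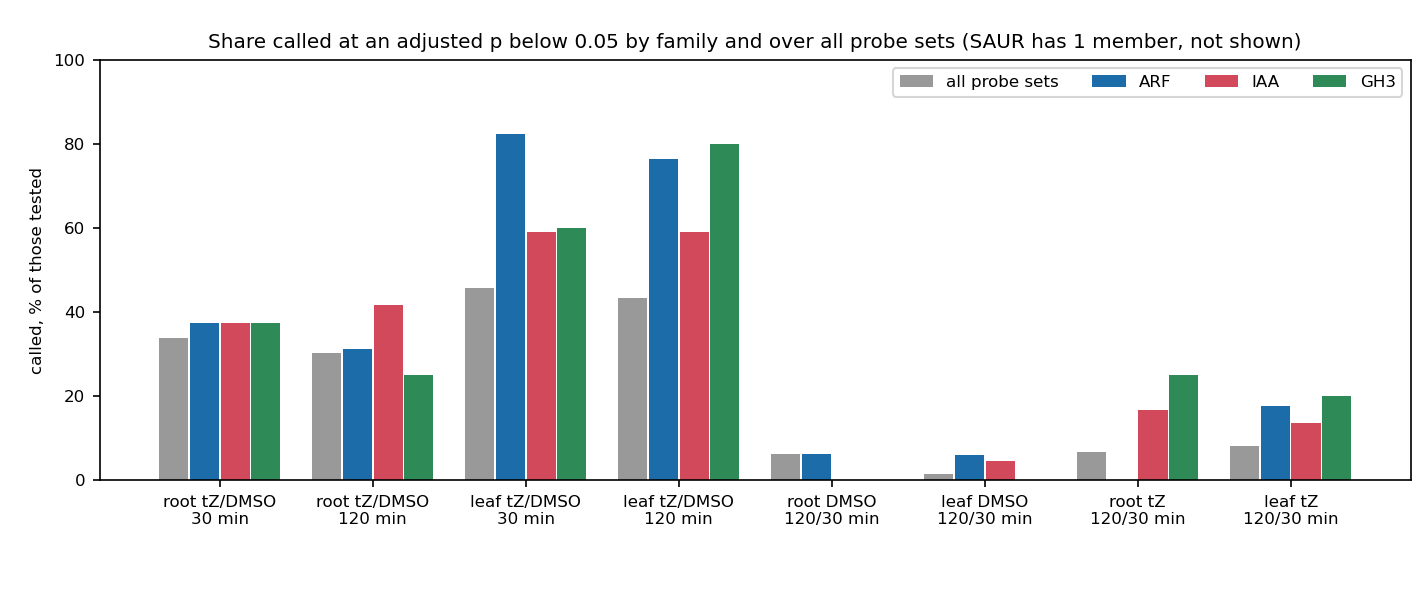
Percent of tested members called (limma adjusted p below 0.05) in each family, beside the percent of all probe sets tested, for 8 comparisons. The ARF share reaches 82.4% in leaf at 30 min, against 45.6% of all probe sets, while in root at 30 min the ARF, IAA and GH3 shares are all 37.5%, against 33.7%.

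**Figure D2:**
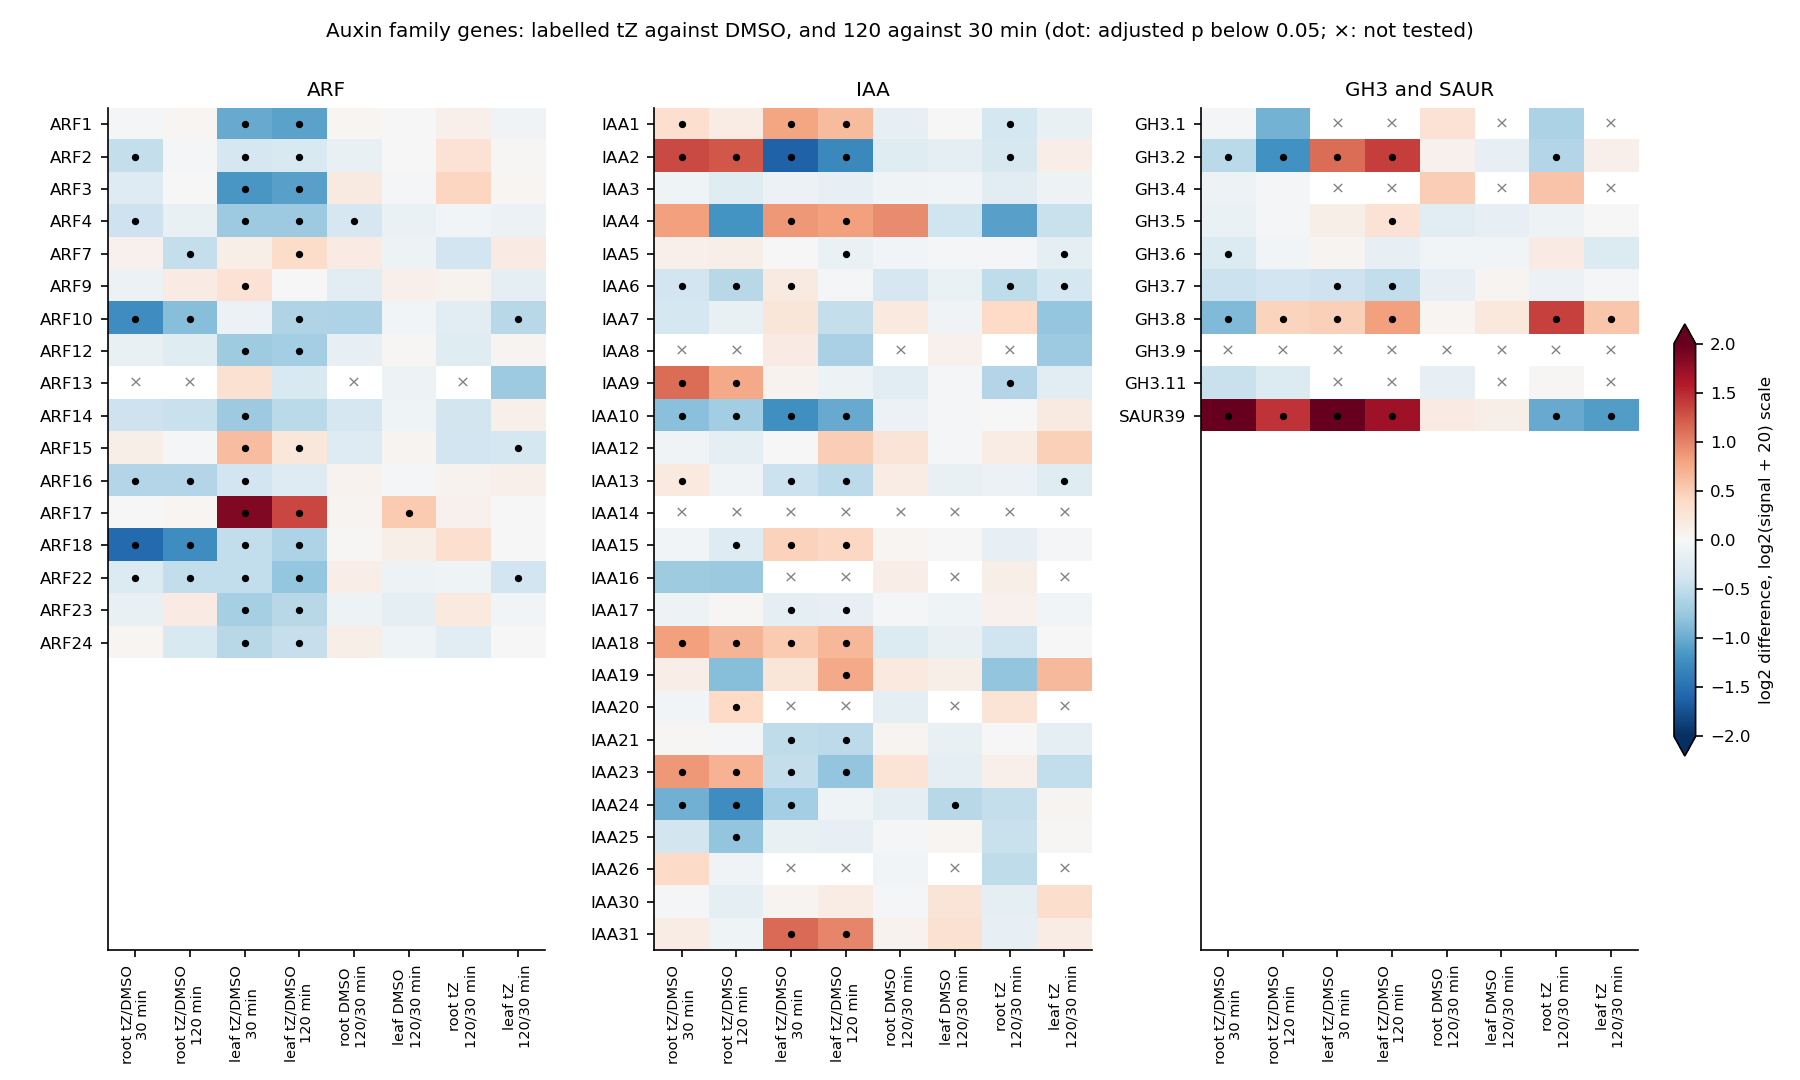
Log2 change of each of the 53 members (rows, by family) in 8 comparisons (columns), with a dot where the change was called and a cross where the member was not tested. SAUR39 is higher in all 4 columns of tZ against DMSO, most ARF genes are lower in the leaf columns, and the columns of DMSO 120 against 30 min hold 3 dots.

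Among the transcription factors, no ARF gene was called higher in root. There 6 of 16 tested ARF genes were lower at 30 min and 5 of 16 at 120 min, so the shares called, 37.5% and 31.2%, were near the 33.7% and 30.3% of all probe sets. The ARF genes had a median log2 change of -0.20 and -0.19 in root, against -0.04 and -0.10 over all probe sets. With arrays shifted to a common median 1 ARF gene was called higher and 4 lower at 120 min, and without root tZ 120 min replicate 2 the counts were 1 higher and 7 lower. Leaf gave 11 lower and 3 higher of 17 at 30 min and 10 lower and 3 higher at 120 min, 82.4% and 76.5% called against 45.6% and 43.4%, with medians of -0.49 and -0.54 over ARF genes against 0.03 over all probe sets at both times. The direction of the ARF median was the same under quantile normalization and under a common median in all 4 comparisons.

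ARF10, ARF18 and ARF22, which are targets of the microRNA miR160 in rice and belong to the class of ARFs that act as repressors, were lower in both organs. ARF18 read 1021, 1670 and 1428.2 in root labelled DMSO 30 min and 410.5, 419.1 and 515.7 in root labelled tZ 30 min. At 120 min it read 1349.4, 1613.5 and 1193.5 with DMSO and 514.3, 666.5 and 539.5 with tZ. The root groups did not overlap at either time, and the log2 change was -1.55 (SE 0.165, adjusted p = 1.85e-06) at 30 min and -1.24 (SE 0.165, adjusted p = 2.92e-05) at 120 min. In leaf ARF18 read 2254.3, 2392.4 and 1989.3 with DMSO and 1640.1, 1519.3 and 1537.7 with tZ at 30 min, and 2459, 2372.6 and 2371.6 with DMSO and 1439.7, 1462.7 and 1805.9 with tZ at 120 min. Again no tZ array reached a DMSO array, and the log2 changes were -0.49 (adjusted p = 0.000126) and -0.61 (adjusted p = 1.3e-05).

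ARF22 was the other ARF gene called in all 4 comparisons. In root it read 1276.2, 1272.1 and 1213.5 with DMSO and 1068.6, 1067.7 and 981.9 with tZ at 30 min, then 1416.5, 1347.3 and 1378.7 with DMSO and 955.2, 956.6 and 1009.7 with tZ at 120 min. In leaf it read 840.4, 960 and 943.8 with DMSO and 605.4, 579.9 and 761.2 with tZ at 30 min, then 869.6, 835.7 and 852 with DMSO and 513.9, 494.7 and 463.7 with tZ at 120 min. In each organ and at each time, all 3 tZ arrays lay below all 3 DMSO arrays. The log2 change was -0.27 (adjusted p = 0.0119) and -0.50 (adjusted p = 0.000112) in root, and -0.49 (adjusted p = 0.00046) and -0.77 (adjusted p = 4.69e-06) in leaf. ARF10 was lower in root at both times, by log2 changes of -1.25 (SE 0.185, adjusted p = 6.07e-05) and -0.86 (SE 0.185, adjusted p = 0.00214), and in leaf at 120 min, at -0.60 (adjusted p = 0.00147). Its change in leaf at 30 min was -0.11 (adjusted p = 0.541). ARF16 was lower in root at -0.58 (SE 0.102, adjusted p = 0.00027) and -0.59 (SE 0.102, adjusted p = 0.000336).

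The ARF genes of the ETTIN group, ARF2 (OsETTIN2), ARF3, ARF14 and ARF15 (OsETTIN1), which are known targets of trans-acting short interfering RNAs, did not move together in leaf. ARF3 fell from 579 ± 51.4 to 248 ± 19.6 in leaf at 30 min, a log2 change of -1.16 (SE 0.152, adjusted p = 7.42e-06), and was at -1.08 (adjusted p = 1.74e-05) at 120 min. ARF2 was lower at both times, at -0.34 (adjusted p = 0.00383) and -0.31 (adjusted p = 0.00774). ARF14 was lower at 30 min, at -0.73 (adjusted p = 0.024), but the call was lost without leaf DMSO 30 min replicate 2, at -0.49 (adjusted p = 0.139), and without leaf tZ 30 min replicate 2, at -0.59 (adjusted p = 0.0986). It was also lost with no filter (adjusted p = 0.0527) and with no intensity trend (adjusted p = 0.0512). ARF15 went the other way. It read 2842.6, 3032 and 2643.1 in leaf with DMSO and 4411.9, 4422.9 and 4242.4 with tZ at 30 min, and 2864.3, 2937.3 and 2995.7 with DMSO and 3408.8, 3449 and 3426.6 with tZ at 120 min. All tZ arrays of leaf lay above all DMSO arrays of the same time. The log2 change was 0.62 (SE 0.0537, adjusted p = 5.92e-08) at 30 min and 0.22 (adjusted p = 0.00254) at 120 min, the latter 0.16 (adjusted p = 0.136) with arrays shifted to a common median. In root ARF15 read 812.8, 962.1 and 782 with DMSO and 1081.7, 822.3 and 869.7 with tZ at 30 min, and 730.3, 621.6 and 774.4 with DMSO and 648.5, 758.7 and 686.5 with tZ at 120 min. These root groups overlapped at both times.

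ARF17, related to the Arabidopsis activators ARF6 and ARF8, gave the largest ARF change among those called in leaf. Its leaf arrays labelled DMSO read 319.8, 320.4 and 348.3 at 30 min and 460.2, 499.2 and 481.3 at 120 min. Those labelled tZ read 1258.9, 1238.2 and 1210 at 30 min and 1239.8, 1244.8 and 1251 at 120 min. Each tZ array was thus above every DMSO array, with log2 changes of 1.85 (SE 0.0710, adjusted p = 2.39e-12) and 1.34 (SE 0.0710, adjusted p = 1.52e-10). In root the 4 group means of ARF17 lay between 1160.0 ± 77.9 and 1236 ± 82.5, and its changes were 0.01 (adjusted p = 0.959) and 0.03 (adjusted p = 0.851). ARF12, of the same group, moved in the opposite direction in leaf, at -0.72 (adjusted p = 5.67e-07) and -0.68 (adjusted p = 1.11e-06). ARF7 was higher in leaf at 120 min, at 0.37 (adjusted p = 0.000384), and lower in root at 120 min, at -0.47 (adjusted p = 0.0372).

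Other ARF genes were lower in leaf at both times. ARF1 read 1012 ± 14.6 with DMSO and 498 ± 52.9 with tZ at 30 min, with log2 changes of -1.001 (SE 0.0898, adjusted p = 8.62e-08) at 30 min and -1.07 (SE 0.0898, adjusted p = 4.5e-08) at 120 min. ARF23 and ARF24, whose proteins are known to pair with each other in rice, were lower together. ARF24 read 3025.5, 3205 and 2987.4 in leaf with DMSO and 2066.8, 2108.5 and 2105.5 with tZ at 30 min, and 2962.9, 2912.1 and 2812.5 with DMSO and 2109.8, 2124.4 and 2037.2 with tZ at 120 min. The tZ arrays of leaf were all below the DMSO arrays, at -0.55 (adjusted p = 1.2e-07) and -0.47 (adjusted p = 9.44e-07). In root ARF24 read 442.9, 535.9 and 541.7 with DMSO and 556.9, 494.8 and 515.7 with tZ at 30 min, and 537.7, 530.9 and 583.6 with DMSO and 386.6, 523.4 and 431.6 with tZ at 120 min. Its change in root was not called, at 0.05 (adjusted p = 0.828) and -0.30 (adjusted p = 0.0929). ARF23 changed in leaf by -0.66 (adjusted p = 1.07e-08) and -0.55 (adjusted p = 1.19e-07), and ARF4 by -0.73 (adjusted p = 3.96e-09) and -0.72 (adjusted p = 5.39e-09).

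The Aux/IAA repressor genes were split between directions in every comparison of tZ with DMSO. In root 6 of 24 tested IAA genes were higher and 3 lower at 30 min, and 5 were higher and 5 lower at 120 min. In leaf 6 of 22 were higher and 7 lower at both times. The share called was 37.5% at 30 min and 41.7% at 120 min in root, against 33.7% and 30.3% of all probe sets, and 59.1% at both times in leaf, against 45.6% and 43.4%. The root share at 30 min was near that of all probe sets. The split at 120 min in root was 7 higher and 4 lower with arrays shifted to a common median, and 5 higher and 9 lower under quantile normalization.

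IAA2 moved in opposite directions in the 2 organs. In root it read 1056.6, 1118.4 and 1170.7 with DMSO and 2853.4, 2844.7 and 2746.7 with tZ at 30 min, and 948.1, 963.4 and 903 with DMSO and 2397.9, 1975.3 and 2422.4 with tZ at 120 min. In leaf it read 2762.8, 2814.8 and 2635.6 with DMSO and 807.7, 989.7 and 842.4 with tZ at 30 min, and 2568.2, 2336.3 and 2295 with DMSO and 956.4, 977.1 and 961 with tZ at 120 min. No group overlapped its partner: the tZ arrays were the higher ones in root and the lower ones in leaf. The log2 change in root was 1.32 (SE 0.0848, adjusted p = 6.23e-09) and 1.25 (SE 0.0848, adjusted p = 1.54e-08), the latter 1.34 (adjusted p = 5.72e-10) without root tZ 120 min replicate 2. In leaf it was -1.62 (SE 0.0739, adjusted p = 1.85e-11) and -1.30 (SE 0.0739, adjusted p = 3.7e-10).

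IAA23, known in rice for keeping the quiescent centre of the root tip, followed the same pattern. In root it read 1595.3, 1470.1 and 1475.9 with DMSO and 2783, 2671.4 and 2919.4 with tZ at 30 min, and 1856.1, 1853.8 and 1788 with DMSO and 3170.2, 2468.7 and 3417.5 with tZ at 120 min. In leaf it was dimmer, at 374.6, 292 and 290.6 with DMSO and 233.9, 228.9 and 206.6 with tZ at 30 min, and 287.1, 251.5 and 295.2 with DMSO and 209.5, 132.3 and 126.8 with tZ at 120 min. The tZ arrays were all above the DMSO arrays in root and all below them in leaf. The log2 change was 0.87 (SE 0.0978, adjusted p = 3.15e-06) and 0.70 (SE 0.0978, adjusted p = 4.65e-05) in root, and -0.47 (adjusted p = 0.0285) and -0.79 (adjusted p = 0.000917) in leaf. Taken as the mean over its 3 probe sets, IAA23 changed by 0.58 (adjusted p = 0.000791) in root at 30 min.

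IAA10 and IAA24 were lower in both organs. IAA10 read 1432.8, 1452.9 and 1502.2 in root with DMSO and 809, 776.7 and 859.3 with tZ at 30 min, and 1307.6, 1359.3 and 1360.2 with DMSO and 785.1, 986.9 and 714.5 with tZ at 120 min. The leaf arrays read 3558.3, 3848.5 and 3707.3 with DMSO and 1494.7, 1732.6 and 1476.4 with tZ at 30 min, and 3739.6, 3522.7 and 3517.1 with DMSO and 1702.1, 1760.2 and 1851.7 with tZ at 120 min. All tZ arrays lay below the DMSO arrays of the same organ and time, so that IAA10 was called in all 4 comparisons. Its log2 change was -0.83 (SE 0.103, adjusted p = 9.19e-06) and -0.70 (SE 0.103, adjusted p = 8.17e-05) in root, and -1.23 (SE 0.0654, adjusted p = 1.23e-10) and -1.01 (SE 0.0654, adjusted p = 1.72e-09) in leaf. IAA24 changed by -0.96 (adjusted p = 0.00101) and -1.24 (adjusted p = 0.000136) in root and by -0.68 (adjusted p = 0.000231) in leaf at 30 min. In leaf at 120 min IAA24 stood at -0.09 (adjusted p = 0.633). Its leaf DMSO level was 467 ± 45.6 at 120 min and 696 ± 108 at 30 min, a difference whose call was lost in 9 of 16 alternatives. The IAA24 change with tZ was not called different between the times in leaf.

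IAA18 was the IAA gene called higher in all 4 comparisons, at modest signal. In root it read 170.8, 156.4 and 145.9 with DMSO and 293.5, 271.6 and 311.3 with tZ at 30 min, and 117, 153.9 and 112.7 with DMSO and 227.3, 200.5 and 219.9 with tZ at 120 min. The leaf arrays read 84.8, 73.1 and 83.7 with DMSO and 154.8, 106.4 and 114.7 with tZ at 30 min, and 83.1, 67 and 62.9 with DMSO and 122.9, 129.5 and 118.3 with tZ at 120 min. The tZ arrays were above the DMSO arrays in each case. The log2 changes were 0.81 (adjusted p = 0.00148) and 0.68 (adjusted p = 0.00636) in root, and 0.52 (adjusted p = 0.0354) and 0.66 (adjusted p = 0.00921) in leaf. With tZ 120 min against DMSO 30 min in leaf, IAA18 stood at 0.52 (adjusted p = 0.0365). That last call was lost in 8 of 16 alternatives, among them leaving out any 1 of the arrays compared.

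IAA9 was called in root and IAA31 in leaf, neither in the other organ. In root IAA9 rose from 465 ± 26.1 to 1036 ± 105 at 30 min, a log2 change of 1.12 (SE 0.104, adjusted p = 4.48e-07), and was at 0.75 (adjusted p = 4.32e-05) at 120 min, while in leaf its changes were 0.08 (adjusted p = 0.743) and -0.10 (adjusted p = 0.68). IAA31 was higher in leaf, at 1.14 (SE 0.135, adjusted p = 2.49e-06) and 0.98 (adjusted p = 1.44e-05), though the mean over its 2 probe sets moved by only 0.57 (adjusted p = 0.0355) and 0.53 (adjusted p = 0.0499). The less bright probe set of IAA31 was dim, with a mean log2 level over all arrays of 4.848 against 10.044. IAA31 in root stood at 0.14 (adjusted p = 0.153) and -0.09 (adjusted p = 0.396). IAA1 was higher in root at 30 min, at 0.34 (adjusted p = 0.00153), and in root at 120 min stood at 0.15 (adjusted p = 0.129). In leaf IAA1 was higher at 0.78 (SE 0.0461, adjusted p = 4.37e-10) and 0.63 (adjusted p = 7.94e-09), the former 0.39 (adjusted p = 0.000908) as the mean over its 2 probe sets. The dim gene IAA4 was higher in leaf at 0.87 (adjusted p = 0.00734) and 0.83 (adjusted p = 0.0107), the latter lost without leaf DMSO 120 min replicate 3, at 0.59 (adjusted p = 0.0636). At 30 min the mean over the 3 probe sets of IAA4 was 1.39 (adjusted p = 0.000254). With all 24 arrays in the fit both leaf calls of IAA4 were lost, at 0.87 (adjusted p = 0.0758) and 0.83 (adjusted p = 0.0971). IAA13, which acts in lateral root initiation in rice, was higher in root at 30 min, at 0.20 (adjusted p = 0.0132), and lower in leaf at both times, at -0.43 (adjusted p = 1.02e-06) and -0.53 (adjusted p = 1.02e-07).

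Some IAA calls were lost when single arrays were left out or the processing was changed. IAA6 was lower in root at 30 min, at -0.38 (adjusted p = 0.0247), and lost the call when any of 5 of the 6 arrays compared was left out: DMSO replicate 1, at -0.36 (adjusted p = 0.0738), DMSO replicate 2, at -0.38 (adjusted p = 0.0627), and tZ replicates 1, 2 and 3, at -0.37 (adjusted p = 0.0617), -0.38 (adjusted p = 0.0641) and -0.39 (adjusted p = 0.053). IAA25 was lower in root at 120 min, at -0.80 (adjusted p = 0.0145). That call was lost without DMSO 120 min replicate 1, at -0.73 (adjusted p = 0.0548), replicate 2, at -0.73 (adjusted p = 0.0542), or tZ 120 min replicate 1, at -0.65 (adjusted p = 0.0681). IAA19 was higher in leaf at 120 min, at 0.76 (adjusted p = 0.0133), and not called without tZ replicate 1, at 0.58 (adjusted p = 0.0783), or replicate 2, at 0.66 (adjusted p = 0.0591). The IAA19 call was also lost with no intensity trend (adjusted p = 0.0568) and with all 24 arrays in the fit (adjusted p = 0.066). The IAA6 call was also lost with no intensity trend (adjusted p = 0.0746) and with arrays shifted to a common median (adjusted p = 0.0515).

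SAUR39, which in rice is known to hold down auxin synthesis and transport, gave the largest log2 change of the called members in each of the 4 comparisons of tZ with DMSO. In root it read 371.5, 284.7 and 367.3 with DMSO and 2226.4, 2160.5 and 2117.8 with tZ at 30 min, and 404, 370.3 and 373.1 with DMSO and 1168.3, 897.9 and 1166.9 with tZ at 120 min. The leaf arrays read 474.7, 369.4 and 379.3 with DMSO and 3364.8, 2782.2 and 3652.1 with tZ at 30 min, and 446.5, 465.5 and 417.1 with DMSO and 1456.4, 1516.7 and 1480.1 with tZ at 120 min. Every tZ array was above every DMSO array in both organs, and the tZ arrays of 30 min were all above those of 120 min. The log2 change was 2.61 (SE 0.121, adjusted p = 1.21e-10) and 1.44 (SE 0.121, adjusted p = 2.18e-07) in root, and 2.94 (SE 0.103, adjusted p = 7.57e-13) and 1.70 (SE 0.103, adjusted p = 7.35e-10) in leaf. Without root tZ 120 min replicate 2 the change in root at 120 min was 1.56 (adjusted p = 1.72e-08).

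**Figure D3:**
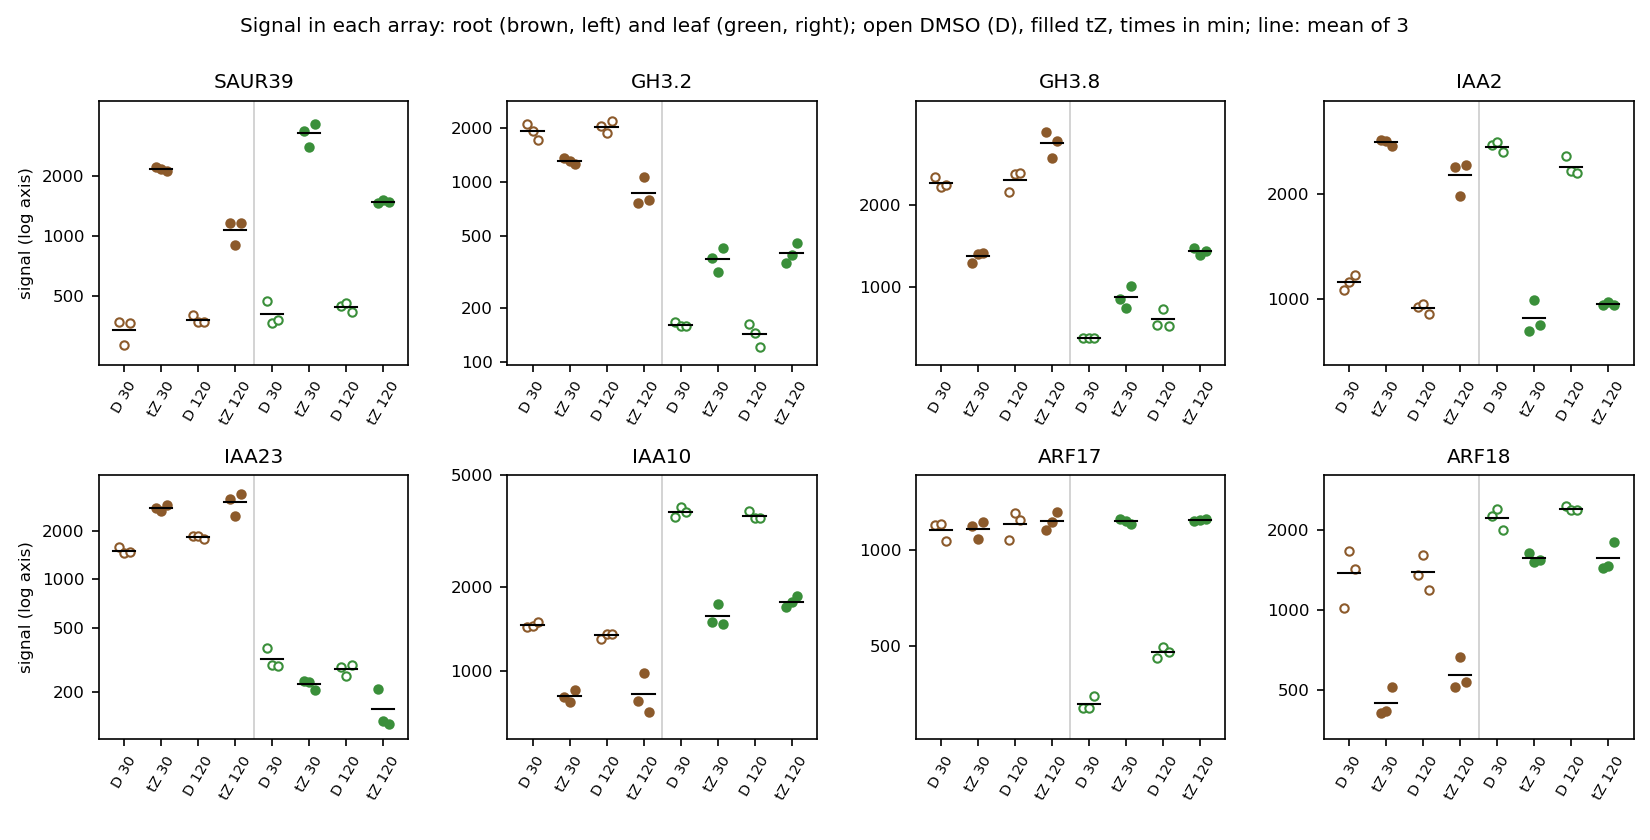
Signal in each array (points, log axis) of SAUR39, GH3.2, GH3.8, IAA2, IAA23, IAA10, ARF17 and ARF18 in the 8 groups. SAUR39 is higher in arrays labelled tZ in both organs, IAA2, IAA23 and GH3.2 move in opposite directions in root and leaf, IAA10 and ARF18 are lower in both, and ARF17 is higher with tZ in leaf and level across the root groups.

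Of the 5 GH3 genes tested in both organs, GH3.2 was called in opposite directions at both times and GH3.8 at 30 min, while at 120 min GH3.8 was higher in both. In root 3 of 8 tested GH3 genes were lower and none higher at 30 min, and 1 was higher and 1 lower at 120 min. These shares, 37.5% and 25%, were near the 33.7% and 30.3% of all probe sets. In leaf 2 of 5 were higher and 1 lower at 30 min, and 3 were higher and 1 lower at 120 min, 60% and 80% against 45.6% and 43.4%. GH3.2, an enzyme that joins auxin to amino acids, read 2119.1, 1940.2 and 1728.3 in root with DMSO and 1362.1, 1315.6 and 1261.1 with tZ at 30 min, and 2061.1, 1886.5 and 2195.8 with DMSO and 766.6, 1068.8 and 801.3 with tZ at 120 min. In leaf it read 165.6, 158.9 and 158.3 with DMSO and 379.8, 318.7 and 430.7 with tZ at 30 min, and 163.2, 144 and 120.5 with DMSO and 357.4, 392.9 and 460.4 with tZ at 120 min. The tZ arrays were all lower in root and all higher in leaf, with no overlap. The log2 change was -0.54 (SE 0.115, adjusted p = 0.00142) and -1.21 (SE 0.115, adjusted p = 7.75e-07) in root, and 1.12 (SE 0.144, adjusted p = 5.6e-06) and 1.38 (SE 0.144, adjusted p = 5.55e-07) in leaf.

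GH3.8, also an auxin-conjugating enzyme, changed direction with time in root. There it read 2518.2, 2317.9 and 2356.8 with DMSO and 1218.4, 1323.1 and 1329.9 with tZ at 30 min, and 2225.4, 2585.7 and 2612.2 with DMSO and 3707, 2974.5 and 3437.1 with tZ at 120 min. The tZ arrays were the lower ones at 30 min and the higher ones at 120 min, without overlap at either time. The log2 change was -0.88 (SE 0.0892, adjusted p = 1.05e-06) at 30 min and 0.44 (SE 0.0892, adjusted p = 0.00124) at 120 min, the latter 0.53 (adjusted p = 0.000115) without root tZ 120 min replicate 2. In leaf GH3.8 read 646.7, 646.4 and 645.8 with DMSO and 898.9, 832.4 and 1004.5 with tZ at 30 min, and 722.3, 830 and 718.2 with DMSO and 1382.8, 1305.3 and 1351.2 with tZ at 120 min. All tZ arrays of leaf were above the DMSO arrays of the same time, at 0.48 (SE 0.0806, adjusted p = 0.000101) and 0.82 (SE 0.0806, adjusted p = 2.97e-07).

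The remaining GH3 genes moved little or were dim. GH3.5, which is OsJAR1 and joins jasmonate to isoleucine, was higher in leaf at 120 min, at 0.30 (SE 0.0526, adjusted p = 0.000186). GH3.6 was lower in root at 30 min, at -0.27 (adjusted p = 0.0145), and not called without DMSO replicate 2, at -0.26 (adjusted p = 0.0517), or replicate 3, at -0.25 (adjusted p = 0.0572). That call was also lost with all 24 arrays in the fit, at -0.27 (adjusted p = 0.0926), and under quantile normalization, at -0.20 (adjusted p = 0.0759). GH3.7 was lower in leaf, at -0.42 (adjusted p = 0.0211) and -0.50 (adjusted p = 0.0077), but its 3 probe sets disagreed, and their mean gave 0.30 (adjusted p = 0.422) and 0.02 (adjusted p = 0.967). The probe sets other than the brightest were dim, with mean log2 levels over all arrays of 5.717 and 4.914 against 8.124. At 30 min the GH3.7 call was also lost without DMSO replicate 1, at -0.34 (adjusted p = 0.0926), DMSO replicate 2, at -0.41 (adjusted p = 0.055), tZ replicate 1, at -0.38 (adjusted p = 0.0646), and tZ replicate 3, at -0.37 (adjusted p = 0.0712). GH3.4 read 70.7, 81.8 and 112.8 in root with DMSO and 90.6, 43.8 and 118.8 with tZ at 30 min, and 123.9, 113 and 157.2 with DMSO and 147.6, 126.8 and 109.2 with tZ at 120 min. Its root groups overlapped, and its 12 leaf arrays read between 3 and 26.3, too dim to test there.

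In the DMSO arrays the families hardly moved between the times. In root 1 of 49 members was called between 120 and 30 min, 2.04% against 6.23% of all probe sets (3.24% higher and 2.98% lower), and in leaf 2 of 45, 4.44% against 1.4% (0.708% higher and 0.694% lower). ARF4 was lower in root at 120 min, from 7329.9 ± 482 to 5822 ± 289.6, a log2 change of -0.33 (SE 0.0724, adjusted p = 0.0123). That call was lost without DMSO 30 min replicate 3, at -0.28 (adjusted p = 0.0654), and without DMSO 120 min replicate 1, at -0.30 (adjusted p = 0.0509). In leaf ARF17 was higher at 120 min, at 0.52 (SE 0.0710, adjusted p = 0.00171). IAA24 was lower in leaf at 120 min, at -0.55 (adjusted p = 0.0411), and of the 6 arrays compared only DMSO 30 min replicate 2 could be left out with the call kept. Leaving out DMSO 30 min replicate 1 or 3 gave -0.46 (adjusted p = 0.155) or -0.51 (adjusted p = 0.15), and leaving out DMSO 120 min replicate 1, 2 or 3 gave -0.51 (adjusted p = 0.134), -0.51 (adjusted p = 0.162) or -0.62 (adjusted p = 0.0664). In the same DMSO comparisons all 5 tested type-A response regulators were called higher at 120 min in root, and 3 of 5 in leaf. With arrays shifted to a common median, the share of higher calls over all probe sets was 28.0% in place of 52.1% for root and 71.6% in place of 50.5% for leaf.

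Between the tZ arrays of 120 and 30 min, more members were lower at the later time. In root 1 member was higher and 6 lower, 14.3% against 6.74% of all probe sets (3.65% higher and 3.09% lower), and in leaf 1 was higher and 7 lower, 17.8% against 8.01% (3.8% higher and 4.21% lower). GH3.8 was the higher gene in both organs, at 1.37 (SE 0.0892, adjusted p = 2.87e-07) in root and 0.56 (SE 0.0806, adjusted p = 0.000233) in leaf. SAUR39 was lower in both, at -1.01 (SE 0.121, adjusted p = 9.27e-05) and -1.12 (SE 0.103, adjusted p = 1.75e-06). In root GH3.2, IAA9, IAA6, IAA1 and IAA2 were also lower, with log2 changes of -0.58 (adjusted p = 0.00549), -0.58 (adjusted p = 0.0027), -0.50 (adjusted p = 0.0222), -0.35 (adjusted p = 0.00757) and -0.32 (adjusted p = 0.0352). With arrays shifted to a common median 1 higher and 2 lower were left in root, and the share of higher calls over all probe sets went from 54.2% to 69.6%. Among the calls lost were GH3.2, at -0.52 (adjusted p = 0.051), IAA6, at -0.44 (adjusted p = 0.121), and IAA1, at -0.29 (adjusted p = 0.0694). IAA1 in root was also not called as the mean over its 2 probe sets, at -0.25 (adjusted p = 0.321), or with no intensity trend, at -0.35 (adjusted p = 0.058). In leaf ARF10, ARF22, ARF15, IAA6, IAA13 and IAA5 were the other lower genes, with changes from -0.55 (adjusted p = 0.0174) for ARF10 to -0.18 (adjusted p = 0.0259) for IAA5. Without leaf tZ 30 min replicate 3, 1 higher and 4 lower were left, and ARF10, ARF22 and IAA5 stood at -0.39 (adjusted p = 0.0877), -0.26 (adjusted p = 0.0968) and -0.14 (adjusted p = 0.111). The calls for ARF10 and IAA5 were also lost without leaf tZ 120 min replicate 1 or 3, that for ARF22 without leaf tZ 120 min replicate 2 or 3, and that for IAA6 in root without any 1 of 5 arrays, all but tZ 120 min replicate 2.

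Whether the difference between tZ and DMSO itself changed with time was tested as an interaction. In root 3 of 49 members differed, 6.12% against 4.6% of all probe sets. Over all probe sets 2.6% had a more positive signed change at 120 min and 2% a more negative one. The GH3.8 change was more positive at 120 min by 1.33 (SE 0.126, adjusted p = 4.89e-05) and the SAUR39 change smaller, at -1.17 (SE 0.172, adjusted p = 0.00122). The GH3.2 interaction, -0.67 (adjusted p = 0.028), was lost when any 1 of 9 of the 12 arrays was left out, namely any root array except DMSO 30 min replicate 1, DMSO 120 min replicate 2 and tZ 120 min replicate 2. Without these arrays in turn its log2 value ran from -0.70 to -0.58 and its adjusted p from 0.051 to 0.0758. In leaf 3 of 45 members differed, 6.67% against 3.83% of all probe sets (2.03% more positive and 1.8% more negative). They were ARF17 at -0.51 (adjusted p = 0.00726), ARF15 at -0.39 (adjusted p = 0.00604) and SAUR39 at -1.24 (adjusted p = 6.66e-05), all with smaller changes at 120 min. The ARF15 interaction was not called with arrays shifted to a common median (adjusted p = 0.0836), with no intensity trend (adjusted p = 0.0603) or with all 24 arrays in the fit (adjusted p = 0.187). The leaf count was 5 without DMSO 30 min replicate 2 and also 5 without tZ 30 min replicate 2.

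Counting members called at both times within an organ, comparisons that share no array, 13 moved in the same direction in root, 68.4% of the 19 called at 30 min and 72.2% of the 18 called at 120 min. GH3.8 was the 1 member called in opposite directions. Over all probe sets the same shares were 63.2% and 70.3%. In leaf 26 members moved in the same direction, 83.9% of the 31 called at each time, and none in opposite directions, against 78.9% and 82.8% over all probe sets.

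The comparison of tZ 120 min with DMSO 30 min leaves out the groups labelled DMSO 120 min and tZ 30 min. Treatment label and incubation time change together in it, so their effects cannot be told apart. In root 5 of 49 members were higher and 17 lower, 44.9% against 29.4% of all probe sets (11.7% higher and 17.7% lower), and in leaf 11 of 45 were higher and 21 lower, 71.1% against 45.6% (23.4% higher and 22.2% lower). In root SAUR39, IAA2, IAA23, IAA9 and GH3.8 were the higher genes, at 1.60 (adjusted p = 6.41e-08), 1.004 (adjusted p = 2.43e-07), 0.97 (adjusted p = 1.87e-06), 0.54 (adjusted p = 0.000899) and 0.48 (adjusted p = 0.000568). ARF10, ARF18, IAA24, GH3.2 and IAA6 were lower, at -1.48 (adjusted p = 1.63e-05), -1.21 (adjusted p = 3.55e-05), -1.44 (adjusted p = 3.19e-05), -1.13 (adjusted p = 2.16e-06) and -0.88 (adjusted p = 4.41e-05). In leaf ARF17, SAUR39, IAA31, GH3.2 and GH3.8 were higher, at 1.86 (adjusted p = 2.32e-12), 1.82 (adjusted p = 2.6e-10), 1.28 (adjusted p = 6.03e-07), 1.22 (adjusted p = 2.12e-06) and 1.04 (adjusted p = 1.44e-08), though IAA31 as the mean over its 2 probe sets stood at 0.66 (adjusted p = 0.0153). IAA2, ARF3, ARF1, IAA10 and IAA23 were lower in leaf, at -1.49 (adjusted p = 5.58e-11), -1.11 (adjusted p = 1.15e-05), -1.07 (adjusted p = 3.75e-08), -1.06 (adjusted p = 8.38e-10) and -0.97 (adjusted p = 0.000126). These comparisons share arrays with those above.

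Leaf and root differed in most members before any hormone is on the label. In DMSO at 30 min 14 of 51 members were higher in leaf and 28 lower, 82.4% called against 60.1% of all probe sets (26.1% higher and 34% lower). Of these 51, 6 passed the filter in root only and 2 in leaf only, and such members entered through the organ where they were brighter, so their direction is not a finding. Over the 43 members that passed in both organs, 13 were higher in leaf and 23 lower, 83.7% against 62.4% of the probe sets that did so (28.1% higher and 34.2% lower), an alternative chosen after seeing the data. Among these, 7 of 16 ARF genes were higher and 7 lower, 6 of 21 IAA genes were higher and 12 lower, and 4 of 5 GH3 genes were lower and none higher. SAUR39 passed the filter in both organs and was not called, at 0.25 (adjusted p = 0.0749). The balance depends on the scaling. Over all 51 members, with arrays shifted to a common median 17 in place of 14 were higher and 18 in place of 28 lower, and over all probe sets the median difference moved from -0.16 to 0.24 and the share of higher calls from 43.4% to 62.5%. Under that scaling ARF genes were 9 higher and 3 lower, IAA genes 7 and 11, and GH3 genes 0 and 4.

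**Figure D4:**
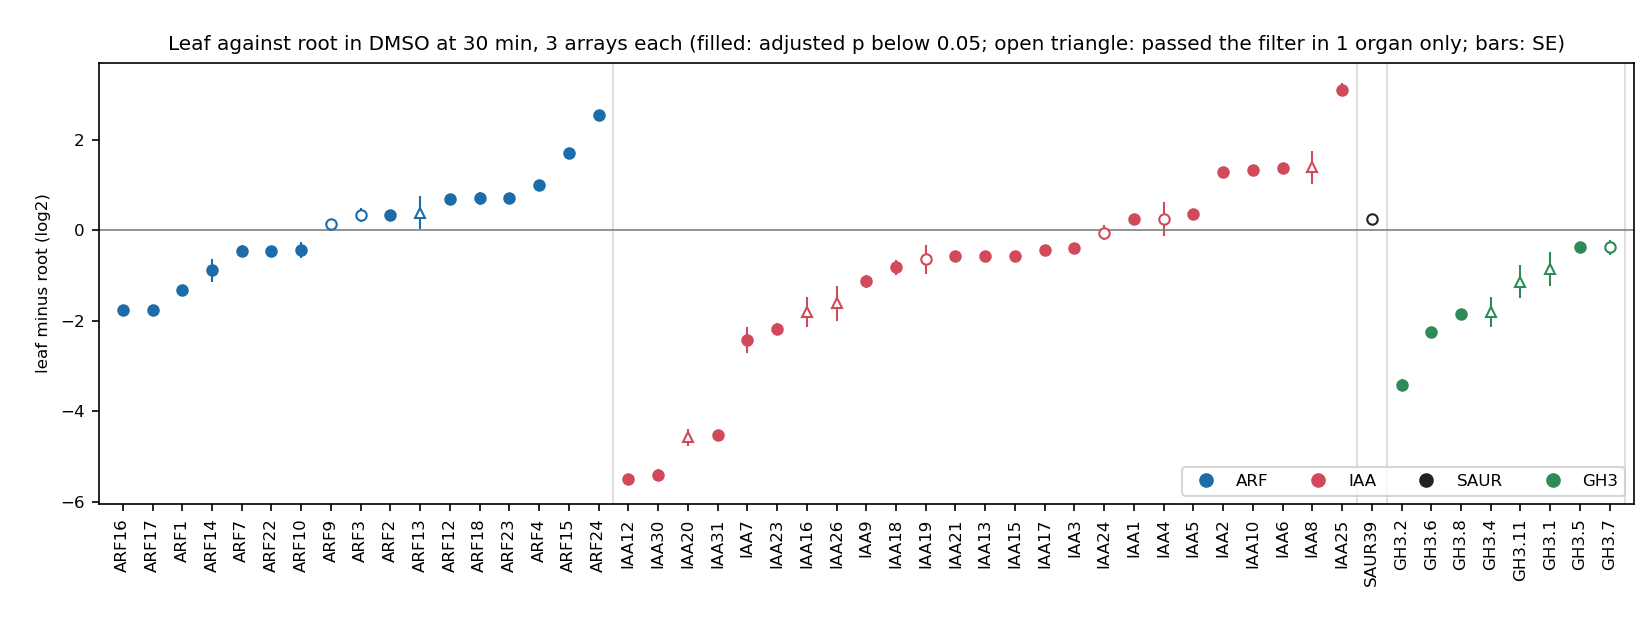
Leaf minus root difference in log2 level in the DMSO 30 min groups for each tested member, by family, with SE bars from the limma fit, filled where called, and open triangles for the 8 members that passed the filter in 1 organ only. IAA12, IAA30 and IAA31 lie lowest among the circles, the 5 GH3 circles lie below 0, and ARF genes lie on both sides of 0.

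The largest organ differences were in IAA genes. IAA12 read 4319.7, 4281.7 and 4539.2 in root and 73.7, 68 and 91.7 in leaf with DMSO at 30 min, and IAA30 read 5645.5, 5705 and 5859.9 and 143.9, 102.1 and 103.8. For both genes every root array was far above every leaf array, at log2 differences of -5.50 (SE 0.108, adjusted p = 6.64e-23) and -5.41 (SE 0.124, adjusted p = 1.2e-21). At the other conditions IAA12 read 3797.8, 4008.6 and 4736.8 in root tZ 30 min, 5417.9, 5204.1 and 5048.7 in root DMSO 120 min and 5082.2, 4302.7 and 4435.6 in root tZ 120 min. In leaf it read 88.9, 71.9 and 73.1, 73.7, 88.1 and 66.9 and 109.1, 118.7 and 118.3 in the same order, so the tZ 120 min arrays were the highest of leaf, though that change was not called. IAA30 read 5195.4, 5826.4 and 5663.6 in root tZ 30 min, 5800.5, 5575.2 and 5368 in root DMSO 120 min and 4654.1, 5382.7 and 4750.3 in root tZ 120 min. In leaf IAA30 read 102.1, 114.2 and 147.3, 141.4, 126.3 and 157.7 and 192.9, 134.7 and 155.4 in that order, and leaf groups overlapped. IAA31 was also higher in root, at -4.52 (adjusted p = 5.62e-22). Of the IAA genes higher in leaf that passed the filter in both organs, IAA25 differed by 3.11 (SE 0.147, adjusted p = 1.71e-15) and IAA6 by 1.37 (adjusted p = 5.05e-12). IAA20, with 657.5, 705.9 and 598.2 in root and 12.9, 3.9 and 8.3 in leaf, and IAA8, with 90.9, 87.9 and 68.3 in leaf and 31.2, 4.3 and 27.3 in root, were too dim to test in the other organ, so only their readings are given.

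GH3.2, GH3.6 and GH3.8 were the GH3 genes with the largest difference, lower in leaf by -3.42 (SE 0.130, adjusted p = 2.06e-17), -2.26 (SE 0.125, adjusted p = 4.04e-14) and -1.86 (SE 0.0857, adjusted p = 9.95e-16) on the log2 scale. The ARF genes higher in leaf were led by ARF24, ARF15 and ARF4, at 2.56 (SE 0.0891, adjusted p = 3.67e-18), 1.72 (SE 0.0947, adjusted p = 3.57e-14) and 1.01 (SE 0.0620, adjusted p = 2.94e-13). Those higher in root were led by ARF16, ARF17 and ARF1, at -1.77 (SE 0.113, adjusted p = 6.16e-13), -1.75 (SE 0.0814, adjusted p = 1.11e-15) and -1.33 (SE 0.0735, adjusted p = 3.71e-14). ARF17 in leaf labelled tZ, at 1245 ± 5.61 at 120 min, was close to its level in root labelled tZ, 1236 ± 82.5.

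The difference between tZ and DMSO was itself tested between organs. Here larger means a more positive signed log2 change in leaf than in root, and smaller a more negative one. A gene that fell more in leaf than in root thus counts as smaller. At 30 min it differed for 24 of 51 members, 12 larger and 12 smaller in leaf, 47.1% against 31.3% of all probe sets (18.1% larger and 13.2% smaller). At 120 min it differed for 27, 15 larger and 12 smaller, 52.9% against 30.7% (17.3% larger and 13.4% smaller). With arrays shifted to a common median the 120 min counts were 10 larger and 13 smaller, and the share of larger effects over all probe sets went from 56.4% to 40.6%. Without root tZ 120 min replicate 2 the counts were 14 and 11. None of the 8 members that passed the filter in 1 organ only was called at either time. Over the 43 that passed in both organs the shares were 55.8% at 30 min, against 36.9% of such probe sets (21.6% larger and 15.4% smaller), and 62.8% at 120 min, against 36.4% (20.6% larger and 15.9% smaller).

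IAA2, GH3.2 and IAA23 were the members called in opposite directions in root and leaf at both times. Leaf minus root, the IAA2 effect differed by -2.94 (SE 0.112, adjusted p = 8.94e-16) at 30 min and -2.54 (SE 0.112, adjusted p = 9.22e-15) at 120 min, the GH3.2 effect by 1.67 (SE 0.184, adjusted p = 8.95e-08) and 2.60 (SE 0.184, adjusted p = 4.33e-11), and the IAA23 effect by -1.35 (SE 0.194, adjusted p = 4.86e-06) and -1.49 (SE 0.194, adjusted p = 1.13e-06). ARF17 differed by 1.84 (SE 0.115, adjusted p = 5.45e-12) and 1.31 (SE 0.115, adjusted p = 1.97e-09), with a change in leaf and none called in root. ARF1 and ARF3, lower in leaf and not called in root, differed by -0.98 (adjusted p = 4.89e-08) and -0.90 (adjusted p = 0.0017) at 30 min and by -1.11 (adjusted p = 5.66e-09) and -1.07 (adjusted p = 0.000289) at 120 min. ARF18, lower in both organs, fell more in root, at 1.06 (adjusted p = 0.000148) and 0.63 (adjusted p = 0.0171). At 120 min the ARF18 difference was lost without root DMSO replicate 2, at 0.51 (adjusted p = 0.0613), and without leaf tZ replicate 3, at 0.52 (adjusted p = 0.0605). The SAUR39 effect was not called different between organs, at 0.33 (adjusted p = 0.14) and 0.26 (adjusted p = 0.26).

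Of the 19 members called in root and the 31 called in leaf at 30 min, 10 moved in the same direction and 6 in opposite directions (IAA2, IAA6, IAA13, IAA23, GH3.2 and GH3.8). The opposite ones were 31.6% of the root calls and 19.4% of the leaf calls, against 18.1% and 13.1% over all probe sets tested in both organs. At 120 min 7 were the same and 5 opposite (IAA2, IAA15, IAA23, GH3.2 and ARF7), 29.4% of 17 root calls and 16.1% of 31 leaf calls, against 23.8% and 16.1%. Among ARF genes none was called in opposite directions at 30 min and 1, ARF7, at 120 min. These counts compare arrays of different organs and share none.

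**Figure D5:**
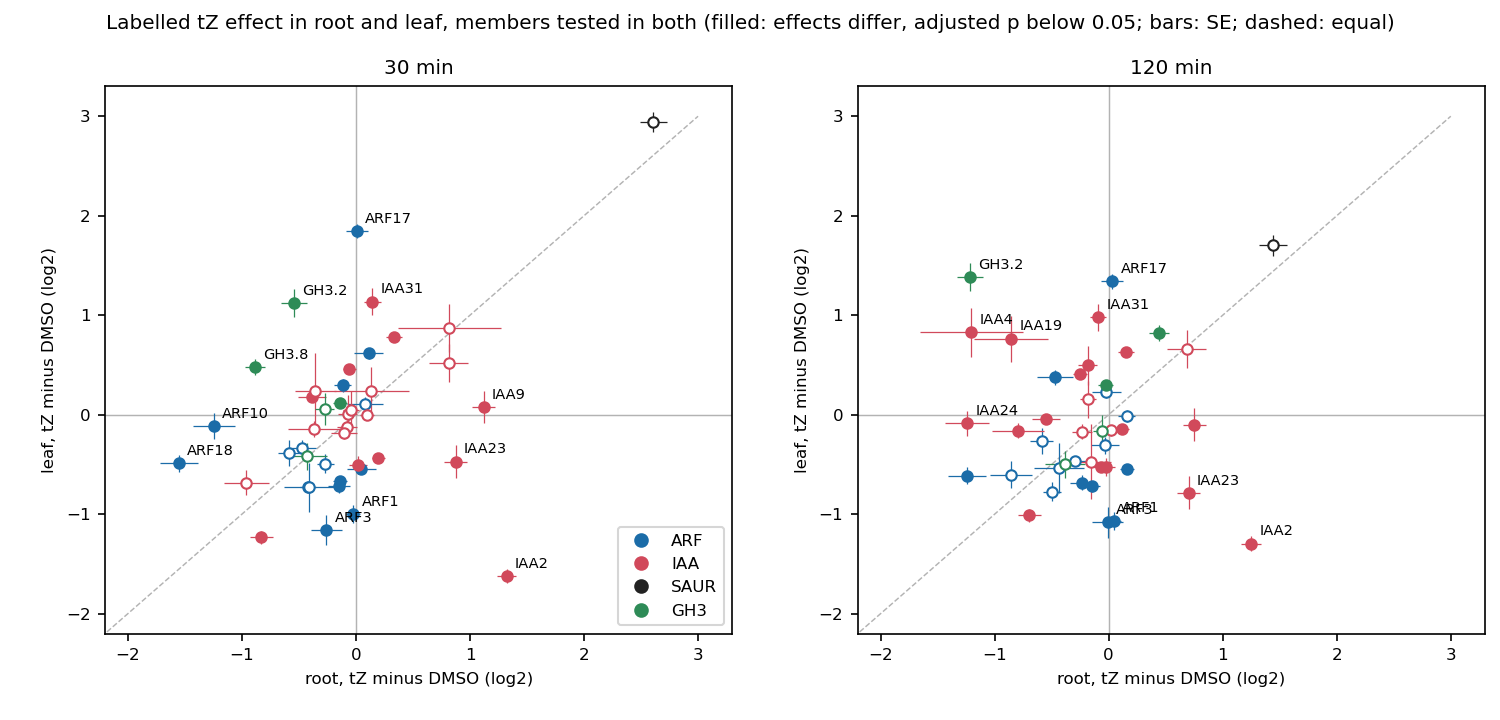
Log2 change of tZ against DMSO in root (horizontal) and leaf (vertical) for members tested in both organs, at 30 and 120 min, filled where the effects differed between organs by the limma interaction. SAUR39 lies at the upper right at both times, IAA2 at the lower right and GH3.2 at the upper left.

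Other genes of auxin synthesis, transport, repression and inactivation, 20 with a probe set of 1 gene, 17 of them tested in each organ, moved in both directions. In arrays labelled tZ, 6 were higher and 5 lower in root at 30 min, 64.7% of those tested against 33.7% of all probe sets, and 4 and 4 in root at 120 min, 47.1% against 30.3%. In leaf 7 were higher and 3 lower at 30 min, 58.8% against 45.6%, and 8 and 4 at 120 min, 70.6% against 43.4%. ILL1, of the family of enzymes that free auxin from amino acid conjugates, was higher in all 4 comparisons, at 2.11 (SE 0.100, adjusted p = 1.59e-10) and 1.31 (SE 0.100, adjusted p = 6.82e-08) in root and 1.23 (SE 0.0667, adjusted p = 1.6e-10) and 0.82 (SE 0.0667, adjusted p = 3.08e-08) in leaf. DAO, which oxidises auxin, was higher in root, at 0.97 (adjusted p = 2.63e-07) and 0.66 (adjusted p = 2.34e-05), and lower in leaf, at -1.27 (adjusted p = 4.19e-06) and -0.69 (adjusted p = 0.00179). FIB, a tryptophan aminotransferase of auxin synthesis, was lower in root at 30 min, at -0.75 (adjusted p = 2.11e-05), and higher in leaf at both times, at 0.71 (adjusted p = 4.05e-07) and 1.38 (adjusted p = 1.4e-10).

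Among transport genes, the efflux carrier gene OsPIN5, also listed as OsPIN9, was higher in root, at 2.32 (adjusted p = 1.74e-10) and 1.95 (adjusted p = 1.72e-09). In leaf it was not called, at -0.16 (adjusted p = 0.764) and 0.04 (adjusted p = 0.952). OsPIN5a, also listed as OsPIN6, was lower in all 4 comparisons, from -0.62 (adjusted p = 6.7e-09) in leaf at 30 min to -1.65 (adjusted p = 0.000246) in root at 120 min. The kinase gene OsPID, whose Arabidopsis relative directs PIN carriers, was lower in root at -1.13 (adjusted p = 2.43e-05) and -1.40 (adjusted p = 4.38e-06). OsTPR2, of the TOPLESS-related co-repressors, was higher in all 4 comparisons, at 0.18 (adjusted p = 0.0455) and 0.23 (adjusted p = 0.0141) in root and 0.85 (adjusted p = 2.93e-09) and 0.68 (adjusted p = 5.36e-08) in leaf.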

How the data were processed

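The series matrix held 1 linear signal per probe set and array. These intensity values were processed by the authors before they were deposited: in every array the mean left after dropping the lowest and highest 2% was close to 500, between 499.952 and 499.959, which shows a common scaling of the arrays. How signals were summarised and background-corrected is not given in the sources used here. Total RNA was column-purified and labelled as biotinylated cRNA, per the labels' protocols.

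Groups came from the sample titles, and for root tZ 30 min the protocol names both times. Of 57381 probe sets, 187 controls were left out and 57194 analysed as log2(deposited signal + 20), 20 being the median signal of 63.5 over 4, rounded to 1 digit, which shrinks changes of dim genes. Probe sets above the 40th percentile of mean log2 in an organ were tested, 34316 per organ, and 38131 between organs. limma 3.58.1 in R 4.3.3 was used (lmFit, eBayes with trend, two-sided, Benjamini-Hochberg, 0.05), with 1 fit per organ and 1 over all 24 arrays between organs. The fit was tested on simulated data. Replicate numbers did not pair arrays: same-numbered deviations from group means correlated at -0.0546 to 0.0748 in root and -0.0405 to 0.0205 in leaf. Whether the 3 arrays of a group stem from separate plants is not stated, so a p-value measures only the spread of these arrays, possibly technical, and 3 arrays per group limit the precision.

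Names came from the array annotation and the RefSeq table of assembly ASM3414082v1, which held all 17905 genes of the 22436 probe sets with 1 gene. The members, lists and tests were chosen with earlier results of these data known. Named genes are, per comparison and family, the 3 largest rises and the 3 largest falls among called members whose groups did not overlap (not asked of interactions). Every array is given for the 2 members of a family with the largest range of group means and for members called in all 4 comparisons of tZ with DMSO. Other members named were picked after their values were seen. Alternatives were the pseudocount, filter, scaling, probe set, trend, arrays in the fit, replicate block and leaving out each array, and, added after seeing the data, a filter passed in both organs. No sequence is printed.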

Additional observations from a re-analysis of the deposited data

Results flagged for a closer look

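Results are listed here where the difference between tZ and DMSO was itself found to differ between times or organs by limma's interaction contrast at an adjusted p below 0.05. Values are differences of log2 changes. Groups of 3 arrays are too small for a test of outlying arrays, and no values outside the comparisons were at hand.

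Between times (120 minus 30 min), 3 members differed in root. GH3.8 stood at 1.33 (adjusted p = 4.89e-05), with changes of -0.88 at 30 min and 0.44 at 120 min. GH3.2 stood at -0.67 (adjusted p = 0.028) and SAUR39 at -1.17 (adjusted p = 0.00122). In leaf 3 members differed: ARF17 at -0.51 (adjusted p = 0.00726), ARF15 at -0.39 (adjusted p = 0.00604) and SAUR39 at -1.24 (adjusted p = 6.66e-05). ARF15 was not called with arrays shifted to a common median, at -0.42 (adjusted p = 0.0836). It was also lost with no intensity trend, at -0.39 (adjusted p = 0.0603), and with all 24 arrays in the fit, at -0.39 (adjusted p = 0.187).

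Between organs at 30 min (leaf minus root), 24 members differed, and the largest in each family were as follows. Among ARF genes ARF17 stood at 1.84, ARF10 at 1.13 (adjusted p = 0.000778) and ARF18 at 1.06 on the higher side, and ARF1 at -0.98, ARF3 at -0.90 and ARF24 at -0.59 (adjusted p = 0.000596) on the lower. ARF10 and ARF18 were lower with tZ in root, at -1.25 and -1.55, and less so in leaf, at -0.11 and -0.49. Among GH3 genes GH3.2 stood at 1.67, GH3.8 at 1.36 (adjusted p = 2.43e-09) and GH3.5 at 0.26 (adjusted p = 0.0142). GH3.5 was not called without root tZ 30 min replicate 3, at 0.20 (adjusted p = 0.0551). Among IAA genes IAA31 stood at 0.99 (adjusted p = 4.12e-06), IAA6 at 0.56 (adjusted p = 0.00266) and IAA15 at 0.52 (adjusted p = 2.28e-06), and on the lower side IAA2 at -2.94, IAA23 at -1.35 and IAA9 at -1.04 (adjusted p = 0.000154). As the mean over its 2 probe sets IAA31 stood at 0.27 (adjusted p = 0.37).

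At 120 min 27 members differed between organs, 8 ARF, 3 GH3 and 16 IAA genes, and the largest in each family are given. Among the ARF genes these were ARF17 at 1.31, ARF7 at 0.84 (adjusted p = 0.00109), ARF18 at 0.63, ARF1 at -1.11, ARF3 at -1.07 and ARF23 at -0.71 (adjusted p = 4.63e-08). The GH3 genes were GH3.2 at 2.60, GH3.8 at 0.38 (adjusted p = 0.0196) and GH3.5 at 0.32 (adjusted p = 0.00237). With arrays shifted to a common median GH3.8 stood at 0.20 (adjusted p = 0.301) and GH3.5 at 0.15 (adjusted p = 0.352), and GH3.8 was also lost without root DMSO 120 min replicate 2, at 0.34 (adjusted p = 0.0503), or 3, at 0.34 (adjusted p = 0.0548), or leaf DMSO 120 min replicate 1, at 0.34 (adjusted p = 0.0507), or 3, at 0.34 (adjusted p = 0.0534). Among the IAA genes they were IAA4 at 2.03 (adjusted p = 0.00511), IAA19 at 1.62 (adjusted p = 0.00738) and IAA24 at 1.16 (adjusted p = 0.00067) on the higher side, and IAA2 at -2.54, IAA23 at -1.49 and IAA9 at -0.85 (adjusted p = 0.00133) on the lower. For IAA4, IAA19 and IAA24 the root changes were -1.20, -0.86 and -1.24, of which only that of IAA24 was called.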

How the results depend on the processing

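Calls of members for tZ against DMSO stayed within 1.5 times under every alternative run, and counts that moved further are given here. Leaving out 1 array at a time gave 17 to 19 calls in root at 30 min, 17 to 23 in root at 120 min, 28 to 29 in leaf at 30 min and 29 to 31 in leaf at 120 min. For DMSO 120 against 30 min in root the 1 call became 2 with a larger pseudocount, 3 with the filter at the 60th percentile, 5 with all 24 arrays in the fit and 3 under quantile normalization, and 0 to 1 without single arrays. In leaf the 2 calls became 1 on shifting arrays to 1 median, with no filter, with no trend and with all 24 arrays, and 1 to 2 without single arrays. For tZ 120 against 30 min in root the 7 calls became 3 with the same median and 4 with no trend, and 5 to 7 without single arrays. In leaf the 8 became 5 with no trend, and 5 to 10 without single arrays. Of the 3 treatment by time calls in root, the mean over all probe sets gave 5 and all 24 arrays 6, with 2 to 4 without single arrays, and in leaf the 3 became 2 to 4 under the other alternatives and 3 to 5 without single arrays. The cause was not tested. Of 156 named results, 122 kept their call in every alternative, 34 lost it in at least 1, and 3 of these reversed, all GH3.7 in leaf with the mean over its probe sets: 0.2976 at 30 min, 0.0187 at 120 min and 0.2982 for tZ 120 against DMSO 30 min.

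With the replicate block the calls were 19 and 20 in root and 31 and 31 in leaf for tZ against DMSO, and 1 named call was lost, IAA5 for tZ 120 against 30 min in leaf, at -0.18 (adjusted p = 0.0528). Replicate numbers did not pair the arrays. With arrays shifted to a common median, the median of all probe sets in the root treatment by time comparison moved from -0.03 to 0.10 and the share of higher calls from 56.5% to 83.4%. Removing members whose name could belong to another family was not run, since the tables named none. Dim members (GH3.4, GH3.9, IAA4, IAA8, IAA14) limit what the signal can show.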
